A study of Mus with 3 samples.

Results

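Homeostatic microglia genes are transcripts that mark the resting, surveying state of microglia, the resident macrophages of the brain. The 9 genes described here are the receptor genes P2ry12, P2ry13, Gpr34, Cx3cr1, Csf1r and Siglech, the surface protein gene Tmem119, the transcription factor gene Sall1 and the cytoplasmic marker gene Aif1. They were chosen by name: a probe belongs to the set if its gene name on the array is one of these 9. That gave 14 probes out of 39429 gene probes, and 9 genes out of 23694 named genes. Csf1r and Siglech had 3 probes each, Cx3cr1 had 2, and the other 6 genes had 1 probe each, so a single spot carried their whole measurement.

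Hippocampi came from outbred male mice of the Slc:ddY stock, aged 6 weeks, with 10 mice in each of 3 groups. Oil-treated mice injected with the peptide (ASO) were dosed by mouth for 15 days with shochu oil, an oily fraction of sweet potato spirit, at 2000 mg/kg/day. Peptide controls (ACO) and normal controls (NCO) received distilled water by mouth over the same time. On day 8, ASO and ACO mice were given 10 nmol of Aβ25-35, a toxic fragment of amyloid β, in 5 µL into the cerebral ventricles, and NCO mice were given 5 µL of distilled water by a route that the labels do not spell out. The label text names 1 injected group with a name that no sample carries, which is read here as ASO, since the design text calls ASO injected. Tissue was taken following a Y-maze test on day 16. RNA of 2 mice formed a set, all 5 sets within a group were combined, and each pool was hybridised to 1 array with Cy3 label. With 1 array per group there are no biological replicates, the spread between mice was not measured, and no test between groups could be run.

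In the healthy brain, microglia scan their surroundings with mobile processes, and P2Y receptors for extracellular nucleotides steer those processes towards damaged cells. Signals from neighbouring cells keep them in this state: CSF1 and IL-34 act on CSF1R, and neuronal fractalkine acts on CX3CR1. The transcription factor SALL1 helps maintain microglial identity. Microglia around amyloid deposits are known to lower several of these genes while they raise a disease-associated programme that includes Cst7, Itgax and Clec7a. In RNA from whole tissue, fewer cells of a type and less RNA per cell cannot be told apart.

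All 14 probes stood well above the local background on all 3 arrays, with a lowest signal to noise score of 6.73, and none had saturated pixels. Levels below are background-corrected intensities scaled to a common 75th percentile of each array, and differences are log2 values after 50 was added. Because probes differ in brightness for technical reasons, each probe is compared only with itself across arrays. The error of a single spot was taken from probes that are printed at 10 spots: the median SD of their differences, among probes within 0.5 log2 of the member's brightness, ranged from 0.07 to 0.13 for the 14 probes. This SD holds error on the array only, and for the brightest Csf1r probe it rests on 7 probes. Counts of genes at least 1.2-fold apart use a limit of size, not a test. The 3 arrays lay at positions 4 (ASO), 2 (ACO) and 1 (NCO) of a slide, so position and group cannot be told apart. Over 19048 probes the arrays correlated at r = 0.993 for ASO with ACO, 0.997 for ACO with NCO and 0.993 for ASO with NCO.

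Hippocampal neuron genes were present as the tissue label implies, with all 10 listed genes, among them Prox1 of dentate granule cells and Wfs1 of CA1 pyramidal cells, well above background on every array. Choroid plexus genes such as Ttr and Kcne2, which belong to the neighbouring ventricle lining, were also well above background. Spike-in transcripts, added to label reactions as a technical control, differed between the arrays: all 5 well-measured E1A control probes were brighter on ASO than on ACO, by 0.41 to 0.82 on the log2 scale with a median of 0.48. For ACO against NCO their median was -0.14, and for ASO against NCO it was 0.34. Whether equal amounts were spiked into the 3 reactions is not stated.

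**Figure D1:**
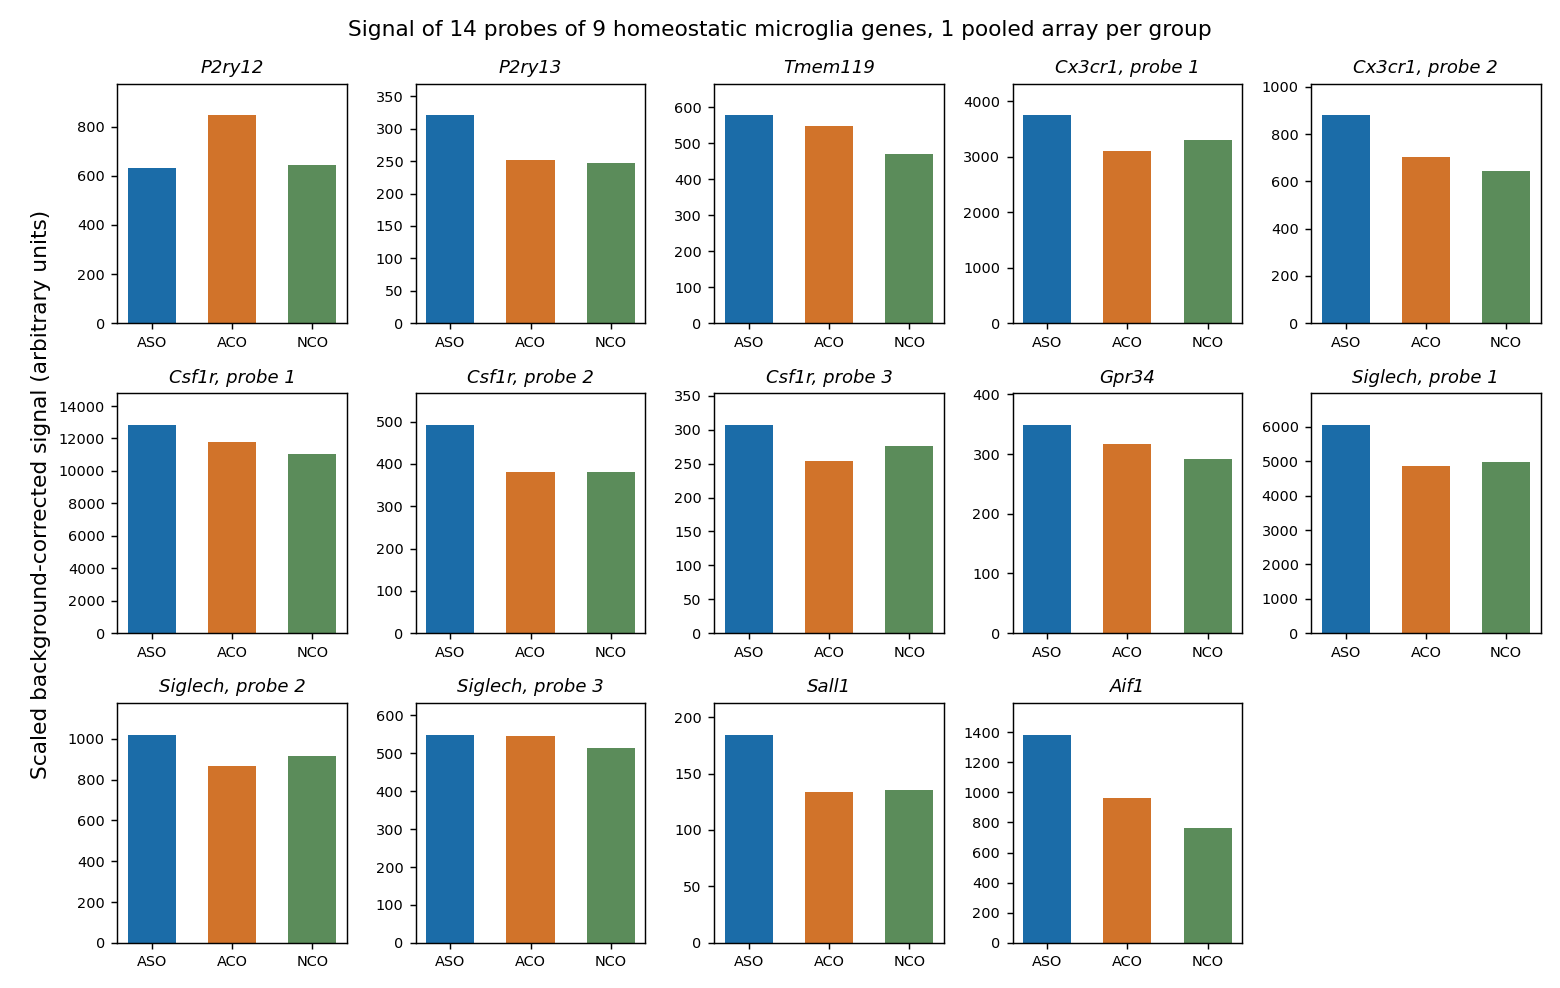
Scaled background-corrected signal (arbitrary units, bars from 0) of each of the 14 probes on the ASO, ACO and NCO arrays, 1 pooled array per group and therefore no error bars. Panels have separate scales. In 13 of the 14 probes the ASO bar is the tallest, and P2ry12 is the 1 panel in which ACO is.

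Most homeostatic genes were modestly brighter on the ASO array than on the ACO array, and P2ry12 was dimmer. By the brightest probe of each gene, 8 of 9 genes were higher on ASO and 1 was lower, with a median difference of 0.27 and a range of -0.40 for P2ry12 to 0.51 for Aif1. Over all 13567 genes measured on both arrays, the median difference was -0.01 and 47.1% were higher. At least 1.2-fold higher were 5 members (Aif1, Sall1, Siglech, P2ry13 and Cx3cr1), against 10.1% of all genes, and P2ry12 was the 1 member at least 1.2-fold lower, against 9.26% of all genes. No member reached 2-fold in either direction, where 0.177% of all genes did upward and 0.0663% downward. The difference of 8 members was larger than the spot SD, the exception being Tmem119. The share of all genes past their own spot SD was not counted. Differences of that size were common: all genes had quartiles of -0.14 and 0.12, and the members' spot SDs ran from 0.07 to 0.11.

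Scaling on the spike-in controls, an alternative chosen after the data were seen, moved every difference down: the median of all genes became -0.45 and that of the members -0.22, which is 0.23 above all genes. Under it 1 member was higher and 8 were lower, with 0 at least 1.2-fold higher and 4 at least 1.2-fold lower. The median gene was itself more than 1.2-fold lower there. The share of all genes on either side of 0 or past 1.2-fold was not counted under spike-in scaling. The sign for ASO against ACO therefore depends on the scaling for all members but P2ry12 and Aif1. P2ry12 was lower under both scalings, and Aif1 was higher under both, though by only 0.03 with spike-in scaling. With a constant of 200 in place of 50, 2 members were at least 1.2-fold higher. A larger constant draws the differences of all genes towards 0, and the share of all genes past 1.2-fold was not counted with it. P2ry12 was the 1 member below the median of all genes under both scalings.

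**Figure D2:**
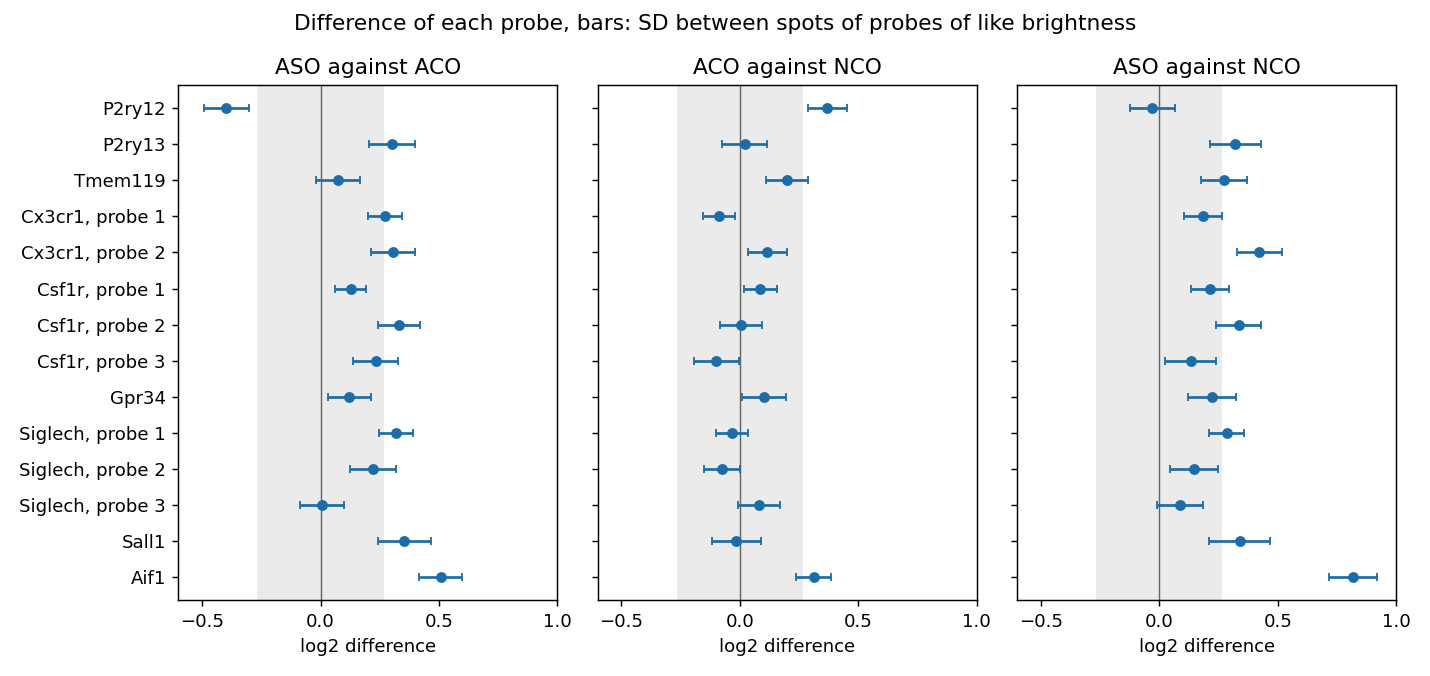
Log2 difference of each probe (points) for ASO against ACO, ACO against NCO and ASO against NCO. Bars are the SD between spots of probes of like brightness, and the grey band marks differences under 1.2-fold. The point of P2ry12 lies at -0.40 in the left panel, at 0.37 in the middle panel and at -0.03 in the right panel, and that of Aif1 lies right of the band in all 3.

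The peptide controls stood above the normal controls in P2ry12 and Aif1, while the other members differed by less than 1.2-fold. For ACO against NCO, 6 of 9 members were higher and 3 lower, with a median of 0.09, from -0.09 for Cx3cr1 to 0.37 for P2ry12. The median over 13313 genes was 0.00, with 51.8% higher. P2ry12 and Aif1 were the 2 members at least 1.2-fold higher, against 2.76% of all genes, and no member was at least 1.2-fold lower, against 2.72%. No member reached 2-fold, where 0.0376% of all genes did upward and 0.0376% downward. The differences of P2ry13, Siglech and Sall1 were smaller than the spot SD, where all genes had quartiles of -0.07 and 0.08. Averaging all probes of a gene brought the members' median to 0.02. With spike-in scaling 9 of 9 members were higher, 3 of them at least 1.2-fold, and the median was 0.23, where that of all genes was 0.13. The share of all genes above 0 or past 1.2-fold was not counted under that scaling.

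The oil-treated, peptide-injected mice stood above the normal controls in 8 of 9 members, a count that spike-in scaling turned to 3 higher and 6 lower. For ASO against NCO the median was 0.27, from -0.03 for P2ry12 to 0.82 for Aif1, where the median over 13457 genes was -0.01 with 47.1% higher. At least 1.2-fold higher were 5 members (Aif1, Sall1, P2ry13, Siglech and Tmem119), against 10.4% of all genes, and none was at least 1.2-fold lower, against 8.32%. Siglech passed this limit on its brightest probe only, while Cx3cr1 and Csf1r passed it on their second probe and were not counted. None reached 2-fold, where 0.171% of all genes did upward and 0.0892% downward. By level, 8 members were highest on ASO, against 36.9% of 13189 genes measured on all arrays, and P2ry12 was the 1 member highest on ACO, against 33.4%. NCO was the lowest array for 5 members, against 28.4%. The 3 comparisons share arrays, so their values are not independent of each other. With spike-in scaling the members' median was -0.07 and that of all genes -0.33, with 1 member at least 1.2-fold higher and 1 at least 1.2-fold lower. The median gene was itself more than 1.2-fold lower there, and the share of all genes on either side was not counted. With a constant of 200, 2 members were at least 1.2-fold higher, and the share of all genes was not counted with that constant.

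**Figure D3:**
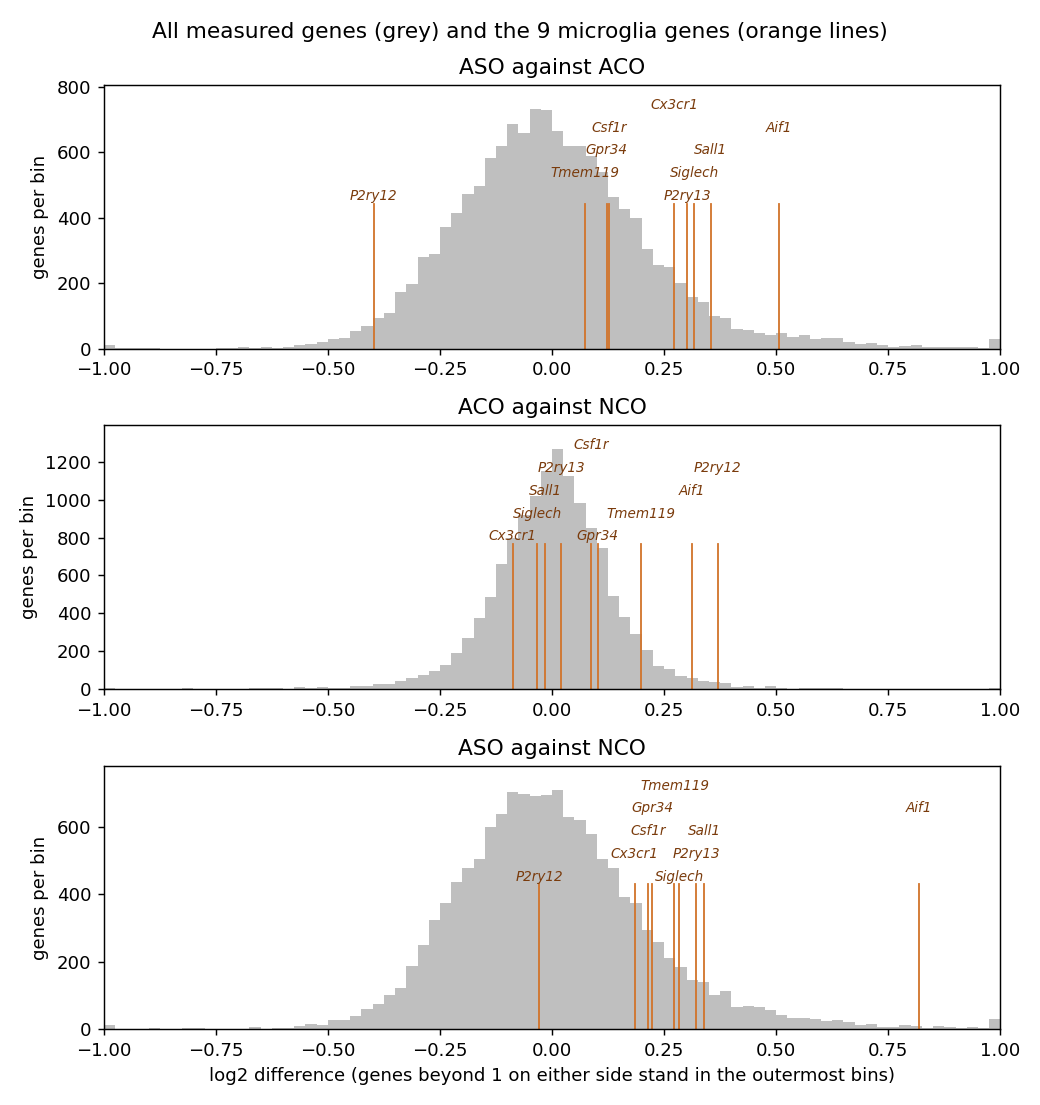
Histograms of the log2 difference of all measured genes (grey, 13567, 13313 and 13457 genes from top to bottom) with the 9 members as orange lines. Members other than P2ry12 lie above 0 for ASO against ACO and ASO against NCO, and the median of all 9 is 0.27 in both. For ACO against NCO the 9 members, P2ry12 included, lie between -0.09 and 0.37 with a median of 0.09.

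P2ry12 and P2ry13 lay on opposite sides of 0 for ASO against ACO. P2ry12, which encodes the G protein-coupled receptor that directs microglial processes to sites of injury, had a signal of 632 on ASO, 848 on ACO and 645 on NCO. It was thus highest on ACO and, under this scaling, nearly level on ASO and NCO. Its difference was -0.40 for ASO against ACO (spot SD 0.09), 0.37 for ACO against NCO (spot SD 0.08) and -0.03 for ASO against NCO (spot SD 0.10). The gene spots around it differed by 0.00 for ASO against ACO and by 0.01 for ACO against NCO. Under 11 other processing settings it ranged from -0.42 to -0.32 for ASO against ACO and from 0.31 to 0.39 for ACO against NCO. Among these, the filters on dim probes and averaging over probes could not move a bright gene with a single probe. Scaled to the spike-in controls, it was at -0.86 for ASO against ACO, 0.51 for ACO against NCO and -0.36 for ASO against NCO, so ACO stayed the highest array but ASO lay below NCO. No second probe of P2ry12 was present to compare with.

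P2ry13, which encodes a second receptor for ADP, had a signal of 321 on ASO, 251 on ACO and 247 on NCO. Here ASO was the high array while ACO and NCO were level: the difference was 0.30 for ASO against ACO, 0.02 for ACO against NCO and 0.32 for ASO against NCO. The 2 genes are direct neighbours in the gene order of the RefSeq table. Of the wider P2Y receptor family, 6 of 10 listed genes were measured for ASO against ACO. Outside the set, P2ry6, a UDP receptor, was at 0.25 for ASO against ACO, P2ry1, another ADP receptor, at -0.12 and P2ry14, a UDP-glucose receptor, at -0.14, with the last 2 differences close to the spot SD of 0.11. P2ry2, P2ry4 and Gpr171 were not well above background on both arrays.

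Gpr34, which encodes a receptor for lysophosphatidylserine, had a signal of 349 on ASO, 317 on ACO and 292 on NCO. The steps between arrays were small: 0.12 for ASO against ACO and 0.10 for ACO against NCO, each with a spot SD of 0.09, and 0.22 for ASO against NCO with a spot SD of 0.10. The order of the arrays was the same as for Aif1, but the steps either side of ACO barely exceeded the error of a spot.

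Cx3cr1 encodes the fractalkine receptor. Its brighter probe had a signal of 3758 on ASO, 3104 on ACO and 3301 on NCO, and its second probe had 882 on ASO, 704 on ACO and 645 on NCO. Both probes were highest on ASO, but they disagreed on the order of ACO and NCO. For ASO against ACO the probes gave 0.27 and 0.31, a gap of 0.03 that is below the spot SD. Between ACO and NCO they gave -0.09 and 0.12, on opposite sides of 0, and for ASO against NCO they gave 0.18 and 0.42. Spot means in place of medians put the brighter probe at 0.42 for ASO against ACO. The ligand gene Cx3cl1, which neurons express, was at 0.19 for ASO against ACO and at -0.01 for ACO against NCO.

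Csf1r encodes the receptor tyrosine kinase on which microglia depend for survival. Its brightest probe had a signal of 12850 on ASO, 11760 on ACO and 11070 on NCO. The second probe had 493 on ASO, 382 on ACO and 380 on NCO, and the third had 308 on ASO, 254 on ACO and 276 on NCO. All 3 probes were highest on ASO, with differences of 0.13, 0.33 and 0.23 for ASO against ACO and of 0.21, 0.34 and 0.13 for ASO against NCO. In the comparison of ACO with NCO they lay on both sides of 0, at 0.09, 0.00 and -0.10. The brightest probe, which stood for the gene, gave the smallest value of the 3 for ASO against ACO, and the mean over the probes was 0.23; quantile normalization brought the brightest probe to 0.06.

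The CSF1R ligand genes were not on the same side for ASO against ACO. Csf1 was at 0.05 for ASO against ACO, below the spot SD of 0.09, and at 0.13 for ACO against NCO. Il34, which neurons make, was at -0.15 for ASO against ACO and at 0.01 for ACO against NCO. Tgfb1, a further cytokine that sustains the homeostatic state, was not well above background on both arrays of any comparison. Its signal to noise score was 3.73 on ASO, above the limit of 2.6, and close to that limit on ACO (2.51) and NCO (2.6, rounded).

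Siglech encodes a sialic acid-binding lectin of mouse microglia that signals through the adaptor TYROBP. The brightest probe had a signal of 6066 on ASO, 4857 on ACO and 4972 on NCO. The second had 1021 on ASO, 869 on ACO and 918 on NCO, and the third had 550 on ASO, 547 on ACO and 514 on NCO. The brighter 2 probes were high on ASO only, while the third was level between ASO and ACO. For ASO against ACO the probes gave 0.32, 0.22 and 0.01, a range of 0.31 that exceeds the spot SDs of 0.07 to 0.10, so the probes agreed in sign but not in size, and their mean was 0.18. For ACO against NCO they gave -0.03, -0.07 and 0.08. Between ASO and NCO they gave 0.28, 0.15 and 0.09, with a mean of 0.17, so only the brightest probe was at least 1.2-fold higher. The adaptor gene Tyrobp, which other microglial receptors also use, was at 0.81 for ASO against ACO, with 3779 on ASO and 2127 on ACO, and at 0.02 for ACO against NCO.

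Tmem119, which encodes a membrane protein used to tell microglia from blood-derived macrophages, had a signal of 579 on ASO, 548 on ACO and 471 on NCO. The NCO array was the low one. The difference was 0.07 for ASO against ACO, within the spot SD of 0.09, then 0.20 for ACO against NCO and 0.27 for ASO against NCO. With spot means the first 2 values were 0.17 and 0.09, so the step between ACO and its neighbours is not well placed by this 1 spot.

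Sall1, the dimmest member, had a signal of 185 on ASO, 134 on ACO and 135 on NCO. It was high on ASO and level on ACO and NCO, at 0.35 for ASO against ACO (spot SD 0.11), -0.01 for ACO against NCO and 0.34 for ASO against NCO (spot SD 0.13). The local background of its spot was 37 on ASO, 56 on ACO and 44 on NCO. Without background correction the difference for ASO against ACO was 0.21, and with a constant of 200 it was also 0.21. With spot means Sall1 was at -0.16 for ACO against NCO and at 0.16 for ASO against NCO, so ACO and NCO were then not level.

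Of the 10 listed transcription factors of microglia, 7 were measured for ASO against ACO, with 5 higher, 2 lower and a median of 0.25. Among all genes in that comparison, 47.1% were higher. Irf8, a factor needed for microglial development, was at 0.47, Cebpa at 0.37 and Mef2a at 0.37. Sall3 at 0.08, Mef2c at 0.00 and Smad3, which relays TGF-β signals, at -0.07 were within their spot SDs. Of these factors, 6 were measured for ACO against NCO, 2 higher and 4 lower with a median of -0.05, where 51.8% of all genes were higher. The factor genes Spi1, the master regulator of the lineage, and Runx1 were not well above background on any array, and Irf5 was measured for ASO against NCO only, at -0.01.

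Aif1, which encodes the calcium-binding protein IBA1 that is used to stain microglia, had a signal of 1384 on ASO, 959 on ACO and 764 on NCO. It was the member with the widest range, and the 3 arrays were each apart by more than the spot error. The difference was 0.51 for ASO against ACO (spot SD 0.09), 0.31 for ACO against NCO (spot SD 0.07) and 0.82 for ASO against NCO (spot SD 0.10). Under the same 11 settings it stayed between 0.45 and 0.53, between 0.27 and 0.35 and between 0.72 and 0.84 in these comparisons. It was 1 of 5 members in the order ASO above ACO above NCO, an order that 18.4% of 13189 genes measured on all arrays showed. Scaled to the spike-in controls, it was at 0.03, 0.45 and 0.48.

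The genes whose pattern over the 3 arrays was most like that of Aif1, by straight-line distance between their differences for ACO against NCO and ASO against ACO among 9891 genes, were Gm4978 (distance 0.02), Gm8054 (0.06) and Vim (0.07), which encodes the intermediate filament vimentin. For P2ry12 they were Adss, an enzyme of purine synthesis (0.01), Ccbe1 (0.03) and Perp (0.03). Nearness over 3 arrays is a description only.

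The remaining partners of these receptors gave few measurements. Adora3, the adenosine A3 receptor gene, was dim, with a signal of 102 on ASO and 86.9 on ACO, and was at 0.15 for ASO against ACO and 0.32 for ACO against NCO. Entpd1, whose ectoenzyme CD39 breaks down the nucleotides that P2Y receptors sense, was not well above background on both arrays of any comparison. Hcst, a further adaptor gene, was measured for ASO against NCO only, at 0.33.

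The disease-associated list and the list of other microglia-enriched genes had higher medians than the members for ASO against ACO, which is a description with no test. Spike-in scaling was not worked out for any gene list besides the members. Counts of list genes above and below 0 therefore hold only for the scaling used here. Of 30 other microglia-enriched genes, 28 were measured for ASO against ACO, 24 higher and 4 lower, with 18 at least 1.2-fold higher and a median of 0.33. Among all genes in that comparison, 47.1% were higher and 10.1% at least 1.2-fold higher. The highest of the microglia-enriched list were the genes of the complement recognition molecule C1q, C1qb at 1.19, C1qc at 1.08 and C1qa at 1.02. Its lowest were Golm1 at -0.21, the fructose transporter gene Slc2a5 at -0.03 and Ptprc at -0.02. The disease-associated list had 15 of 16 genes higher, a median of 0.66, and Cst7 at 1.47, Cd52 at 1.24 and Gpnmb at 1.01 at its top; at its lower end stood Lpl at -0.24, Csf1 at 0.05 and Cd9 at 0.12. The disease-associated list shares Tyrobp, Trem2 and Csf1 with the other lists.

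The other microglia-enriched genes were split for ACO against NCO, with 13 of 25 higher, 12 lower and a median of 0.05. Among all genes in that comparison, 51.8% were higher. C1qb was at -0.56, C1qc at -0.45 and C1qa at -0.26, whereas P2ry12 and Aif1 were above 0. Itgam, named after its value was seen, was at -1.17. The disease-associated list had a median of 0.04, with 11 of 16 higher.

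Csf1r, Cx3cr1 and Aif1 are also expressed by macrophages of the brain's borders and by blood monocytes. Of 10 border macrophage genes, 8 were measured for ASO against ACO, 7 higher with a median of 0.15. Their summed signal was 1394 on ASO, 1115 on ACO and 1124 on NCO. Among all genes, 47.1% were higher for ASO against ACO. Stab1 was at 0.57, Ms4a7 at 0.44 and Cbr2 at 0.31, while Mrc1 was at 0.08, Clec10a at 0.06 and Cd209f at -0.13, and the defining genes Cd163 and Lyve1 were not well above background on any array. Of 10 monocyte and neutrophil genes, 3 were measured for ASO against ACO, Ms4a4c at 0.23, Chil3 at -0.20 and S100a9 at -0.68, and Ccr2, S100a8, Ngp and Retnlg were not well above background on any array. Of 8 lymphocyte genes, 3 were measured, Cd4 at 0.45, Cd3e at 0.40 and Nkg7 at -0.02. The part of these cells in the members' differences was not tested.

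Markers of other brain cells had lower medians for ASO against ACO than the members' 0.27, with endothelium at 0.21 and astrocytes at 0.18 the nearest. The members' median was itself 0.23 with a mean over probes and 0.21 with a constant of 200. The marker lists were not reworked under these settings, so whether the order holds was not tested. Among all genes in this comparison, 47.1% were higher. How far each list median lay from 0 depends on the scaling. With spike-in scaling the members' median was -0.22 and that of all genes -0.45, and the marker lists were not rescaled in this way. The 6 astrocyte genes were all higher with a median of 0.18, with Gfap, the filament gene of reactive astrocytes, at 0.84 and the next highest, Aqp4, at 0.26. The 6 oligodendrocyte genes had a median of 0.15 with 5 higher, the 10 neuronal genes a median of 0.01 with 5 higher, and the 5 measured endothelial genes a median of 0.21 with 3 higher. Choroid plexus genes had a median of -0.25 for ASO against ACO and 0.53 for ACO against NCO, the directions in which P2ry12 differed. Kcne2 was at -0.56 and 0.61 in these comparisons, whereas Ttr was at 0.10 and -0.46. The neutrophil gene S100a9 was at 0.67 and Chil3 at 0.20 for ACO against NCO, also like P2ry12 in sign. Both were dim, with ACO signals of 143 for S100a9 and 86.9 for Chil3. Ms4a4c, the brightest measured gene of that list, was nearly level between ACO and NCO, at 0.02. Its value of 0.23 between ASO and ACO was opposite in sign to that of P2ry12. The part of these cells in the value of P2ry12 was not tested. Red blood cell genes had a median of 0.18 for ASO against ACO, with Hbb-b2 at 0.93, Alas2 at 0.18 and the brightest, Hba-a1, at 0.07.

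**Figure D4:**
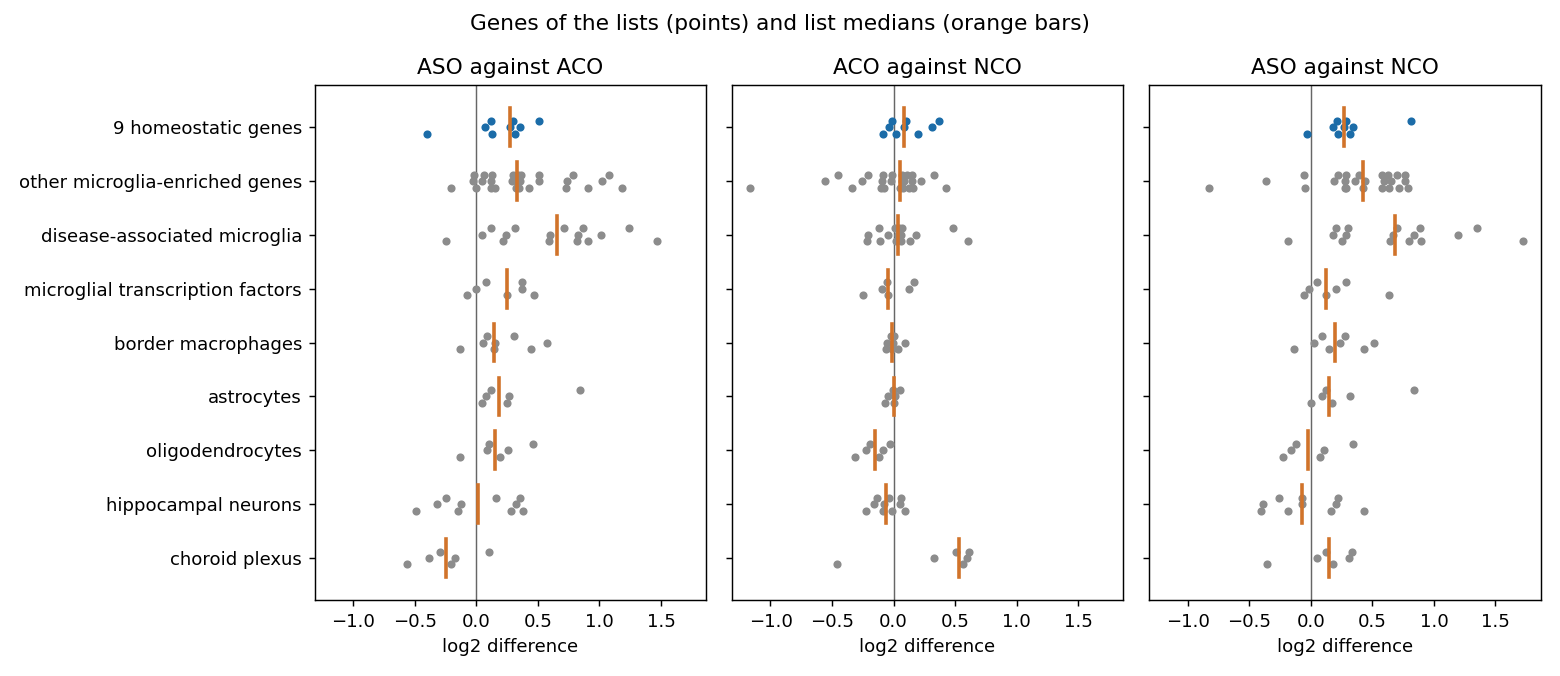
Log2 differences of the measured genes of each list (points, blue for the 9 members) and the median of each list (orange bars) for the 3 comparisons. For ASO against ACO the medians are 0.27 for the members, 0.33 for other microglia-enriched genes and 0.66 for disease-associated genes, and for ACO against NCO those of the 3 lists lie between 0.04 and 0.09.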

How the data were processed

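The members, gene lists and settings were chosen with earlier results of these data known. Spot and background intensities were read at 532 nm by GenePix Pro 6.1.0.4 on a GenePix 4000B scanner, unnormalized, per the file headers. Each spot's saturated percent of pixels, its signal to noise score and its mark were deposited as that software gave them. The submitters' processing notes also name Agilent Feature Extraction. The authors' deposited table of 475 intensities holds 0 of the 14 member probes and was not used further.

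Foreground medians were corrected by the local background median with limma 3.58.1 in R 4.3.3 (normexp, offset 0), on all 45220 spots. Control spots were then left out, arrays were scaled to a common 75th percentile (factors 0.992 on ASO, 0.950 on ACO and 1.06 on NCO), and 50 was added before log2, which draws dim probes towards 0. A probe entered a comparison if its score was 2.6 or more on both arrays, unless saturated on both or marked bad; 53.7% of probes on ASO, 51.7% on ACO and 50.9% on NCO passed. A gene was represented by its brightest entered probe. The members' probes were taken by the file's gene name. Other probes were named through a RefSeq table of assembly GRCm38.p6, 26684 by accession, 2533 by symbol and 472 by synonym, while 1788 stayed under the name on the array and 7952 were left unnamed. No p-value is given, since each group is 1 array. The number of arrays limits the precision. The steps were tested on simulated data. All 9 members were named, with the measured genes of the ligand and factor lists and the 3 highest and 3 lowest genes for ASO against ACO of longer lists; some genes of the lists are not reported here. Python 3.11.15, numpy 2.4.6 and pandas 2.3.3 were used.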

Additional observations from a re-analysis of the deposited data

How the results depend on the processing

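In 11 other settings (background correction, spot means, scaling, added constant, filter on dim probes, probe choice and surrounding spots), the members' median ranged from 0.21 to 0.28 for ASO against ACO, from 0.02 (mean over probes) to 0.09 for ACO against NCO and from 0.21 to 0.31 for ASO against NCO. Of the single-gene values, 276 moved by less than the gene's spot SD and 21 by more. The 276 include values that could not move. With a lowest score of 6.73, no member was touched by the filters on dim probes. Averaging over probes could not change a gene with 1 probe. Members at least 1.2-fold higher numbered 2 with a constant of 200, against 5, for both ASO against ACO and ASO against NCO, and 3 for ASO against NCO without background correction. The share of all genes past 1.2-fold was not counted under these settings, and a larger constant draws the differences of all genes towards 0. Scaling to the spike-in controls, added after the data were seen, gave medians of -0.22 for ASO against ACO, 0.23 for ACO against NCO and -0.068 for ASO against NCO. For ASO against ACO it put 8 members below 0: P2ry12 at -0.86, Tmem119 at -0.38, Csf1r at -0.37, Gpr34 at -0.31, Cx3cr1 at -0.22, Siglech at -0.18, P2ry13 at -0.12 and Sall1 at -0.023. For ASO against NCO 6 were below 0: P2ry12 at -0.36, Cx3cr1 at -0.17, Csf1r at -0.14, Gpr34 at -0.083, Siglech at -0.068 and Tmem119 at -0.051. No paired analysis was possible because each group has 1 array. Leaving out a replicate was not possible for the same reason. Dim spots such as Sall1 depend most on the background value.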
